A study of Mus musculus with 6 samples.

Results

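The genes described here encode 9 enzymes that make, recycle or remove the deoxynucleotides from which DNA is built, *Rrm1*, *Rrm2*, *Rrm2b*, *Tyms*, *Tk1*, *Dut*, *Dck*, *Dtymk* and *Samhd1*. They were chosen by name, and all 9 were found among the 32493 genes of the deposited count table. The cells were neural stem cells (NSCs) of C57BL/6J mice, dissected at E14.5 from around the lateral ventricles and expanded in culture before their RNA was sequenced. The cko embryos carried floxed alleles of the microRNA gene miR-151, which lies in an intron of *Ptk2*, together with Emx1-IRES-Cre, whose Cre recombinase is made in the dorsal telencephalon. The ctrl embryos carried the same floxed alleles without Cre, and the sample labels call them wild type. Of the 6 deposited columns, that of ctrl 2 equalled the mean of ctrl 1 and ctrl 3, rounded up, in 32493 of 32493 genes and was counted in no n. The comparison was therefore made between 2 ctrl and 3 cko libraries.

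DNA synthesis needs all 4 deoxynucleoside triphosphates in balance. Ribonucleotide reductase, a complex of the large subunit RRM1 with a small subunit, either RRM2 or RRM2B, converts ribonucleotides to deoxynucleotides. Thymidylate is then made from dUMP by thymidylate synthase (*Tyms*), with dUTPase (*Dut*) supplying dUMP and keeping uracil out of DNA. The salvage kinases *Tk1* and *Dck* phosphorylate deoxynucleosides taken up by the cell, *Dtymk* carries dTMP on to dTDP, and *Samhd1* breaks deoxynucleoside triphosphates down again. In dividing cells such as embryonic NSCs, RRM2, TYMS and TK1 are made mainly in S phase, whereas RRM2B, a target of p53, also serves resting and damaged cells.

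The libraries held 17883796 to 23335736 counts, and the 9 genes had between 234 and 6956 counts each in every library. A count of 3, taken as the smallest that the depth can show, equals 0.129 to 0.168 CPM (counts set relative to the size of the library), and this limit holds for counting error alone. The NSC genes *Sox2* (556 to 626 normalized CPM) and *Nes* (471 to 1068) were present in every library, but *Emx1*, the gene whose promoter drives the Cre, had only 1 to 10 counts. The genotype could not be checked on its target, because the miR-151 gene is not among the rows of the table.

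Most genes for making deoxynucleotides were higher in cko NSCs, while *Dtymk* and the genes for the p53-linked small subunit and for deoxynucleotide breakdown were not. At an adjusted p under 0.05 (edgeR's quasi-likelihood test, adjusted over 16710 genes), *Rrm1*, *Rrm2*, *Tyms*, *Tk1*, *Dut* and *Dck* were higher, 6 of the 9 against 7.86% of all genes tested. None was lower, against 8.57% of all genes tested. At an unadjusted p under 0.05, 2 were lower, *Rrm2b* and *Samhd1*, but by p they ranked only 4359 and 3181 of the 16710 genes. DESeq2 in place of edgeR called 6 higher and 0 lower, and 1471 higher and 1574 lower among all genes. The median log2 fold change over the 9 genes was 0.76, against -0.0026 over all genes tested. At the threshold of the study, a log2 fold change over 0.9 with an unadjusted p under 0.01, 2 of the 9 were higher (*Rrm1* and *Rrm2*), against 2.39% of all genes tested. The count rested on cko 2 and cko 3, since without either of them only *Rrm1* was called, while the number of all genes called higher dropped from 1314 to 317 and 336. Without cko 1, 5 of the 9 were called, against 853 of all genes called higher. The size of the change depended on ctrl 1, the lower ctrl library for most of these genes. Without it the median log2 fold change over the 9 genes was 0.50, and without ctrl 3 it was 0.83.

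**Figure D1:**
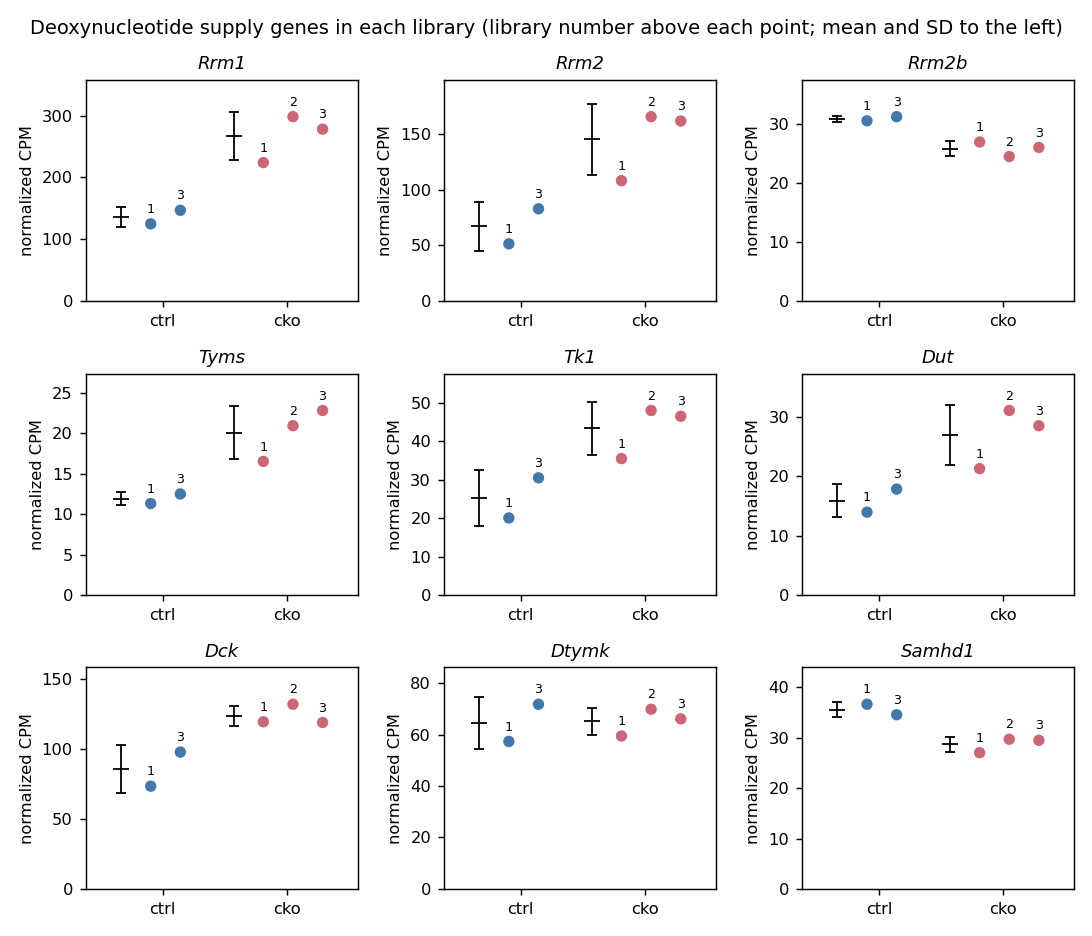
Normalized CPM (vertical axes, each from 0) of the 9 genes in ctrl libraries 1 and 3 (blue) and cko libraries 1, 2 and 3 (red), 1 point a library, with the mean and SD in black to the left of each group. The cko points lie above both ctrl points for 6 genes, below them for *Rrm2b* and *Samhd1*, and among them for *Dtymk*.

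The libraries fell in a similar order for most of the 9 genes. Every cko library was above both ctrl libraries for the 6 genes called higher, an arrangement found in 25.4% of all genes tested. Every cko library was below both for *Rrm2b* and *Samhd1*, an arrangement found in 24.3%. Within the groups, ctrl 3 was above ctrl 1 in 8 of the 9 genes, *Samhd1* being the exception, and cko 1 was the lowest cko library in 7 of the 9. The summed level of the 9 genes was 420 and 526 normalized CPM in ctrl 1 and ctrl 3, and 638, 819 and 778 in cko 1, 2 and 3.

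*Rrm1* (ENSMUSG00000030978, chromosome 7, 102441695 to 102469771 in GRCm38, plus strand) encodes the large, catalytic subunit of ribonucleotide reductase. It was at 125 and 147 normalized CPM in ctrl 1 and ctrl 3, and at 224, 298 and 278 in cko 1, 2 and 3. The lowest cko library was 1.52 times the higher ctrl library. From 136 ± 15.5 (SD, n = 2) to 267 ± 38.3 (SD, n = 3), it rose 1.96-fold (95% interval 1.57 to 2.45), with an adjusted p of 0.00529 in edgeR. It was the only gene of the 9 called under each of the 11 alternatives fitted, which included leaving out each library.

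*Rrm2* (ENSMUSG00000020649, chromosome 12, 24708241 to 24714146, plus strand) encodes the small subunit that carries the tyrosyl radical in S phase. Its level was 51.5 and 82.8 normalized CPM in ctrl 1 and ctrl 3, and 108, 165 and 161 in cko 1, 2 and 3. The groups did not overlap, but ctrl 3 was 1.61 times ctrl 1, the widest ctrl spread of the 9 genes. The change from 67.1 ± 22.2 (SD, n = 2) to 145 ± 32.0 (SD, n = 3) was 2.16-fold (95% interval 1.45 to 3.22), the largest of the 9, with an adjusted p of 0.0236 in edgeR. Without cko 2 and without cko 3 the adjusted p was 0.0967 and 0.0975.

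*Rrm2b* (ENSMUSG00000022292, chromosome 15, 37923952 to 37961318, minus strand) encodes the alternative small subunit, which p53 induces. Its values were 30.6 and 31.3 normalized CPM in ctrl 1 and ctrl 3, and 27.0, 24.6 and 26.1 in cko 1, 2 and 3. All cko values were below both ctrl values, by little. The log2 fold change was -0.26 (standard error 0.095, a ratio of 0.836 with a 95% interval of 0.717 to 0.974), which did not pass (adjusted p = 0.106 in edgeR). With the averaged ctrl 2 column counted as a library it did (adjusted p = 0.0205 in edgeR), but that column holds no measurement of its own. The strand setting of the counts is not given in the sources used here, and *Gm3362* (92 to 137 counts) lies inside the span of *Rrm2b* on the same strand and the antisense *Gm49085* (10 to 29 counts) overlaps its 5′ end, so that reads there are uncertain. The near-identical pseudogene *Gm8616* had 0 to 3 counts.

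The ratio between the small-subunit genes was higher in every cko library than in both ctrl libraries. This separation follows from the values above, since *Rrm2* and *Rrm2b* each separated the groups in opposite directions, and is no further evidence. For every count of *Rrm2b* there were 1.68 and 2.64 counts of *Rrm2* in ctrl 1 and ctrl 3, and 3.998, 6.73 and 6.18 in cko 1, 2 and 3. The mean log2 ratio was 1.08 ± 0.46 (SD, n = 2) in ctrl and 2.46 ± 0.40 (SD, n = 3) in cko NSCs, a difference of 1.38, or 2.61-fold. The exact two-sided permutation test gave p = 0.2, which is the smallest that 10 arrangements of these libraries allow, so this test cannot reach 0.05 here. In CPM per kilobase of transcript, *Rrm2* made up 77.8% and 84.6% of the small-subunit level in ctrl 1 and ctrl 3, and 89.3%, 93.3% and 92.8% in cko 1, 2 and 3. The shares did not overlap between the genotypes, for the same reason.

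The ratio of *Rrm2* to the large-subunit gene did not separate the genotypes. It was 0.411 and 0.563 counts of *Rrm2* for each count of *Rrm1* in ctrl 1 and ctrl 3, and 0.482, 0.554 and 0.581 in the cko libraries. The values overlapped, with a log2 difference of 0.16 (exact two-sided permutation p = 0.6). Without ctrl 1 the difference was -0.07.

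**Figure D2:**
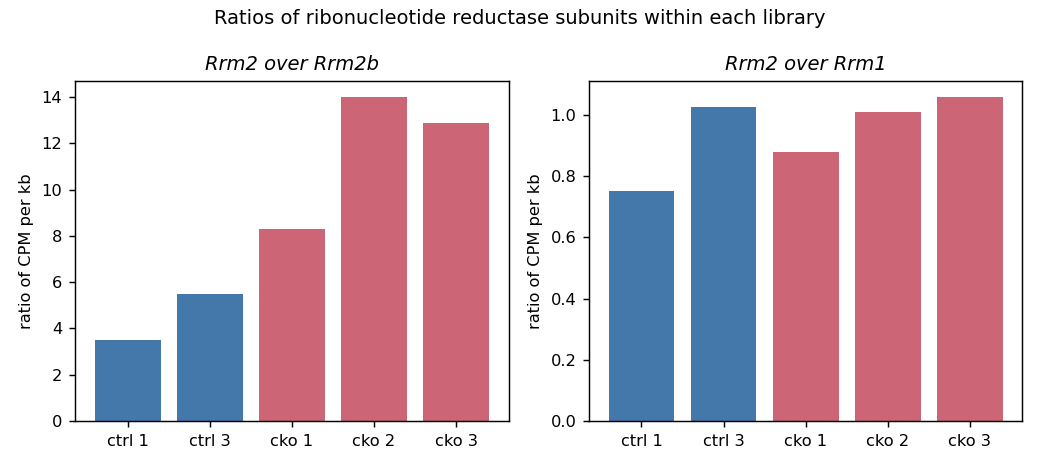
Ratios of CPM per kilobase of transcript (vertical axes, from 0) of *Rrm2* to *Rrm2b* (left) and of *Rrm2* to *Rrm1* (right) in each library, ctrl in blue and cko in red, 1 bar a library. The ratio to *Rrm2b* is 3.50 and 5.50 in ctrl and 8.32 to 14.0 in cko, whereas the ratio to *Rrm1* lies between 0.750 and 1.06 in all 5 libraries.

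The promoters of *Rrm1* and *Rrm2*, which rose together, are shown beside that of *Dtymk*, which did not rise and holds the same 2 motifs. Each line gives the 250 bases before the start of the RefSeq gene (GRCm38.p6), 5′ to 3′ on the strand of the gene. Capitals mark a 7-letter core of the E2F site (TTCCCGC with its variants TTGGCGC and likewise TTCGCGC and finally TTGCCGC, on either strand) and the CCAAT box (on either strand).
Rrm1 (chr7:102441445-102441694, plus strand): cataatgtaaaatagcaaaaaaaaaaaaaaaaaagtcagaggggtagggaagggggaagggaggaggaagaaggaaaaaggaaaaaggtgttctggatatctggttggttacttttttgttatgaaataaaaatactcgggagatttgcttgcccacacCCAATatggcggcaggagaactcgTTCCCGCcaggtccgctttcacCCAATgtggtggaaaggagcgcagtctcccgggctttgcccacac
Rrm2 (chr12:24708004-24708253, plus strand): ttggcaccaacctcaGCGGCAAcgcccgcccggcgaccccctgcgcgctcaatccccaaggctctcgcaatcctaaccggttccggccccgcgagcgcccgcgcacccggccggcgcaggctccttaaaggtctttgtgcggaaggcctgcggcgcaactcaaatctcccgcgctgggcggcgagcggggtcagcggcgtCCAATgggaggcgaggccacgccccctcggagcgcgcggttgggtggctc
Dtymk (chr1:93801935-93802184, minus strand): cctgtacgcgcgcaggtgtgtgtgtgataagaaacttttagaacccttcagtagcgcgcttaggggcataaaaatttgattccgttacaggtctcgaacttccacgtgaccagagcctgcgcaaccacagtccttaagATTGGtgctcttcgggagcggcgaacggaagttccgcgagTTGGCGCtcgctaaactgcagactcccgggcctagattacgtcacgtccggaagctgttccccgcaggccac

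The E2F core begins 67, 235 and 72 bases before the start in *Rrm1*, *Rrm2* and *Dtymk*. Of the 9 genes, 8 had a RefSeq window. The E2F core was in 3 of the 8, against 7.89% of 32851 windows of the same length, and CCAAT was in the same 3, against 33.8%. The longer E2F form (TTTCCCGC, TTTGGCGC, TTTCGCGC or TTTGCCGC), which contains the core, was in 0 of the 8 and in 1.86% of all windows. TTTGAA, the cell cycle homology element, was in the window of *Dck* and in 16% of all windows. These matches are descriptions of the letters, and their part in the changes was not tested. The window of *Dut* lies inside the span given here for the gene, and that of *Samhd1* lies partly inside. A missing motif in those windows therefore says little about the promoter.

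*Tyms* and *Dut*, which act in turn on the way from dUTP to dTMP, were higher. *Tyms* (ENSMUSG00000025747, chromosome 5, 30058202 to 30073617, minus strand), which methylates dUMP to dTMP, was at 11.3 and 12.5 normalized CPM in ctrl 1 and ctrl 3, and at 16.5, 20.9 and 22.8 in cko 1, 2 and 3. The ctrl libraries were close together and below every cko library. It rose 1.69-fold (95% interval 1.29 to 2.21, adjusted p = 0.0227 in edgeR). Its transcript aligns over 201 to 361 bases at 95% identity or more with transcripts of 18 other genes, among them the abundant *Reep3* (5796 to 7692 counts), so that the part of its count that lies in this stretch is uncertain.

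*Dut* (ENSMUSG00000027203, chromosome 2, 125247190 to 125258608, plus strand) hydrolyses dUTP to dUMP, the substrate of thymidylate synthase. It stood at 14.0 and 17.9 normalized CPM in ctrl 1 and ctrl 3, and at 21.3, 31.1 and 28.5 in cko 1, 2 and 3. All cko values were above both ctrl values, with cko 1 nearest to them. The fold was 1.701 (95% interval 1.25 to 2.31, adjusted p = 0.0343 in edgeR). Without ctrl 1, cko 2 or cko 3 the adjusted p was 0.0736, 0.136 and 0.133.

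*Dtymk* (ENSMUSG00000026281, chromosome 1, 93792576 to 93801934, minus strand), which acts next in the pathway and serves both synthesis and salvage, differed from the genes around it. It was at 57.3 and 71.8 normalized CPM in ctrl 1 and ctrl 3, and at 59.4, 69.8 and 66.1 in cko 1, 2 and 3. All cko values lay between the ctrl values. The fold was 1.01, with a 95% interval of 0.834 to 1.22 and an adjusted p of 0.948 in edgeR, so that a change of the size seen in *Tyms* lies outside the interval.

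The salvage kinases were both higher. *Tk1* (ENSMUSG00000025574, chromosome 11, 117815526 to 117826092, minus strand), the cytosolic thymidine kinase of S phase, was at 20.1 and 30.5 normalized CPM in ctrl 1 and ctrl 3, and at 35.5, 48.0 and 46.5 in cko 1, 2 and 3. The lowest cko library was 1.16 times the higher ctrl library, the narrowest gap of the 6 genes called. *Tk1* rose 1.72-fold (95% interval 1.24 to 2.39, adjusted p = 0.039 in edgeR). Without ctrl 1, cko 2 or cko 3 the adjusted p was 0.0696, 0.146 and 0.143. The opposite-strand gene *Afmid*, with 63 to 102 counts, overlaps the 5′ end of *Tk1*, and *Gm20708*, with 0 to 1 counts, spans it on the opposite strand.

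*Dck* (ENSMUSG00000029366, chromosome 5, 88764996 to 88783281, plus strand) phosphorylates deoxycytidine, deoxyadenosine and deoxyguanosine and is less bound to S phase. Its values were 73.4 and 97.8 normalized CPM in ctrl 1 and ctrl 3, and 119, 132 and 119 in cko 1, 2 and 3. The cko libraries were close together and above both ctrl libraries. The fold of 1.44 (95% interval 1.17 to 1.77, adjusted p = 0.031 in edgeR) was the smallest of the 6 called. Without cko 1, 2 or 3 the adjusted p was 0.0821, 0.136 and 0.105.

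The ratio of *Tk1* to *Dck* was 0.273 and 0.312 in ctrl 1 and ctrl 3, and 0.297, 0.364 and 0.391 in cko 1, 2 and 3. Its log2 difference of 0.26 was within the overlap of the groups (exact two-sided permutation p = 0.4). Of the 3 ratios tested in all, none could reach 0.05 in this permutation test, whatever its size.

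*Samhd1* (ENSMUSG00000027639, chromosome 2, 157097533 to 157135265, minus strand) encodes the triphosphohydrolase that degrades deoxynucleoside triphosphates. It was at 36.7 and 34.6 normalized CPM in ctrl 1 and ctrl 3, and at 27.0, 29.7 and 29.5 in cko 1, 2 and 3. All cko values were below both ctrl values, and the spread within each group was small. The log2 fold change was -0.31 (standard error 0.093, a ratio of 0.807 with a 95% interval of 0.695 to 0.939), which did not pass (adjusted p = 0.0622 in edgeR). With the averaged ctrl 2 column counted it did (adjusted p = 0.00933 in edgeR), but that column holds no measurement of its own.

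**Figure D3:**
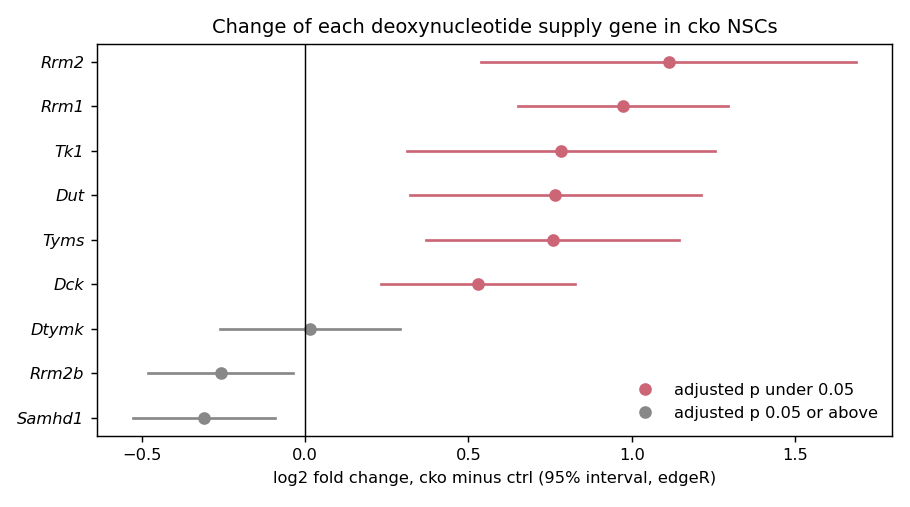
Log2 fold change of each gene, cko minus ctrl (horizontal axis), with its 95% interval from edgeR, red where the adjusted p over all genes is under 0.05 and grey otherwise. The 6 red genes lie between 0.53 and 1.11, *Dtymk* at 0.01, *Rrm2b* at -0.26 and *Samhd1* at -0.31.

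Levels were compared between genes as CPM per kilobase of the transcript with the longest coding sequence. Where coding sequences were equally long, the longest transcript was taken. In ctrl NSCs *Dtymk* was highest and stood apart (57.1 to 71.6), and *Rrm1* (31.3 to 36.8), *Rrm2* (23.5 to 37.8) and *Dck* (23.8 to 31.8) followed, with *Rrm2* overlapping both others. Below them *Tk1* (13.9 to 21.2) and *Dut* (13.7 to 17.5) overlapped, and *Samhd1* (8.81 to 9.34), *Rrm2b* (6.71 to 6.87) and *Tyms* (3.58 to 3.95) were apart. In cko NSCs *Rrm1* (56.1 to 74.6) and *Rrm2* (49.3 to 75.4) reached the level of *Dtymk* (59.2 to 69.6), and these 3 could not be ordered. *Dck* (38.6 to 42.8) stood alone, and *Tk1* (24.6 to 33.3) and *Dut* (20.9 to 30.5) overlapped again. *Tyms* (5.22 to 7.21) overlapped *Samhd1* (6.88 to 7.57) and *Rrm2b* (5.39 to 5.93), which were both above it in ctrl NSCs. These places, and the share of *Rrm2* in the small-subunit level, depend on the transcript taken for each gene, and other transcripts were not tried. That of *Tyms* had 3163 bases for 307 residues, and that of *Dtymk* 1003 bases for 212. In normalized CPM, which does not divide by length, the ctrl mean of *Dtymk* (64.5) was below those of *Rrm1* (136), *Dck* (85.6) and *Rrm2* (67.1).

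Genes with a profile like that of *Rrm2* over the 5 libraries were looked up among all coding genes. By Euclidean distance of log2 values centred on each gene, the 5 nearest of 13463 included *Pole* (the leading-strand polymerase), *Mcm5* (a subunit of the replicative helicase), *Uhrf1* (which binds hemimethylated DNA) and *Fignl1*. *Pole* was at 22.8 and 35.9 normalized CPM in ctrl 1 and ctrl 3, and at 48.4, 73.0 and 71.9 in cko 1, 2 and 3. These genes were chosen for their likeness, and their changes are no further evidence. In the same order *Rrm1* stood at rank 78, *Tk1* at 82, *Dut* at 178, *Tyms* at 311 and *Dck* at 556. *Dtymk* was at rank 4069, *Rrm2b* at 10241 and *Samhd1* at 10447.

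Other genes of deoxynucleotide metabolism were read in the same libraries. Of 25 tested genes for mitochondrial kinases, deaminases, nucleotide pool cleaning and nucleoside diphosphate kinases, 4 were higher and 2 lower at an adjusted p under 0.05, against 7.86% and 8.57% of all genes tested, with a median log2 fold change of 0.04. The share of lower genes was near that background. *Dctd* encodes dCMP deaminase, the other source of dUMP for thymidylate synthase. It was at 12.6 and 18.1 normalized CPM in ctrl 1 and ctrl 3, and at 7.67, 8.06 and 8.32 in cko 1, 2 and 3. Each cko library was below both ctrl libraries, opposite to *Dut* and *Tyms* on either side of dUMP. *Dctd* fell by 0.93 on the log2 scale (standard error 0.18, adjusted p = 0.0154 in edgeR). Without cko 2 or cko 3, 0 of the 25 genes were called in either direction, and without ctrl 1, 1 was higher and 5 lower.

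*Upp1*, the uridine phosphorylase, was the second lower gene (log2 fold change -0.65, adjusted p = 0.0415 in edgeR). *Dnph1*, which removes a modified deoxyuridine monophosphate from the pool, rose by 0.78 on the log2 scale (adjusted p = 0.0213 in edgeR), although a same-strand gene overlaps it. *Itpa*, which clears deaminated purine nucleotides, rose by 0.39 on that scale (adjusted p = 0.025 in edgeR). *Nme1* and *Cmpk1*, which phosphorylate nucleoside diphosphates and monophosphates and were named after their values were seen, had log2 fold changes of 0.45 and 0.31 (adjusted p = 0.0311 and 0.033 in edgeR). The mitochondrial kinases *Tk2* and *Dguok*, the counterparts of *Tk1* and *Dck* that were named in the same way, had log2 fold changes of -0.15 and -0.17 (adjusted p = 0.42 and 0.324 in edgeR).

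In the folate cycle, which hands thymidylate synthase its methyl group, 1 of 9 genes was higher and 1 lower. The folate carrier *Slc19a1* fell by 0.56 on the log2 scale (adjusted p = 0.0331 in edgeR), and it overlaps *Col18a1* on the opposite strand. Over these 2 lists and those for reductants, purine and pyrimidine synthesis, 7 of 66 genes were higher and 5 lower, against 7.86% and 8.57% of all genes tested. Leaving out 1 library gave 0 (without cko 2 or cko 3) to 13 (without ctrl 3) higher and 0 (without cko 2) to 14 (without ctrl 1) lower.

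**Figure D4:**
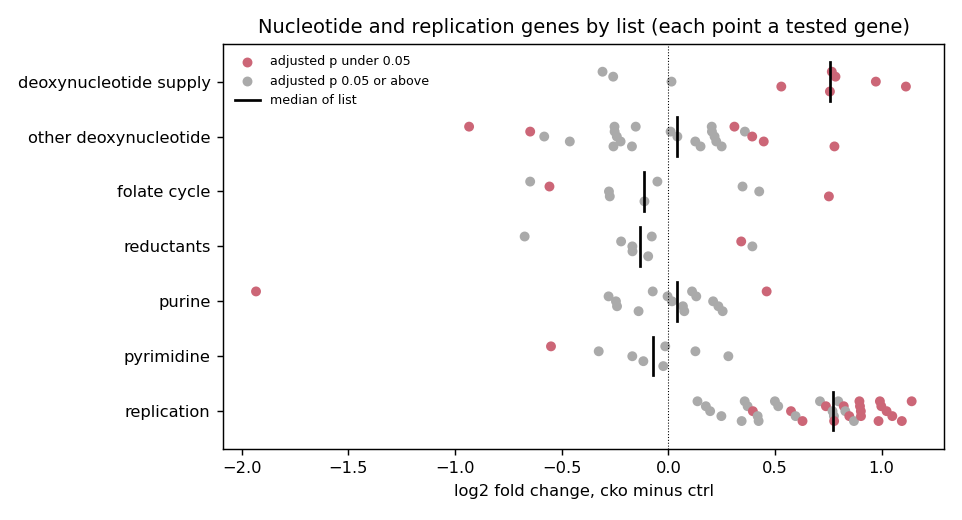
Log2 fold change, cko minus ctrl (horizontal axis), of each tested gene in 7 lists, 1 point a gene, red where the adjusted p over all genes is under 0.05, with the median of each list as a black bar. The medians of the 9 deoxynucleotide supply genes (0.76) and of the replication genes (0.77) lie apart from those of the other lists, which are between -0.13 and 0.04.

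Of 36 genes of replication licensing and the replication fork, 18 were higher and 0 lower (edgeR), against 7.86% and 8.57% of all genes tested. Their median log2 fold change was 0.77. At an unadjusted p under 0.05, 28 were higher and 0 lower, and DESeq2 called 23 and 0. All 36 had a log2 fold change above 0, from 0.14 to 1.14. *Pola1*, the catalytic subunit of the priming polymerase, was at 21.9 and 21.3 normalized CPM in ctrl 1 and ctrl 3, and at 36.1, 45.1 and 39.9 in cko 1, 2 and 3 (log2 fold change 0.903, adjusted p = 0.00415 in edgeR). *Prim2*, a primase subunit of the same complex, rose by 0.902 on that scale (adjusted p = 0.00584 in edgeR). Without cko 2 or cko 3, 6 of the 36 were called, and without ctrl 3, 29 were.

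Genes for proteins that control these enzymes were read in the same libraries. Cyclin F and the APC/C with CDH1 (*Fzr1*) mark RRM2 for breakdown, the APC/C acts on TK1 as well, and CDK1 and CDK2 with cyclin A phosphorylate SAMHD1. In a list of 11 such regulators with the E2F activators and *Trp53*, 6 were higher and 0 lower (edgeR). Of all genes tested, 7.86% were higher and 8.57% lower. The list had 7 and 0 at an unadjusted p under 0.05, which at least 4359 of the 16710 genes tested passed, and 7 and 0 in DESeq2. *Cdk1* rose by 1.29 on the log2 scale (adjusted p = 0.00233 in edgeR) and *Cdc20*, the mitotic activator of the APC/C, by 1.26 (adjusted p = 0.00239 in edgeR). *Cdc20* overlaps *Elovl1* on the opposite strand. Without cko 2 or cko 3, 3 of the 11 were called. The counts measure RNA, and protein or phosphorylation levels were not measured here.

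Since *Rrm2b* is a p53 target, 15 other p53 targets were set beside it. In that list 1 was higher and 0 lower (edgeR). Of all genes tested, 7.86% were higher and 8.57% lower, so 1 of 15 was near that background. At an unadjusted p under 0.05, which at least 4359 of the 16710 genes tested passed, there were 3 and 2, and in DESeq2 3 and 1. The median log2 fold change was -0.16. Without ctrl 3, 5 were higher and 1 lower, and without ctrl 1, 9 were lower. The higher gene was *Btg2*, an inhibitor of proliferation, at 124 and 115 normalized CPM in ctrl 1 and ctrl 3, and at 176, 189 and 187 in cko 1, 2 and 3 (log2 fold change 0.62, adjusted p = 0.00355 in edgeR). *Cdkn1a*, the p53-induced inhibitor of cyclin-dependent kinases, which was named after its values were seen, was at 403 normalized CPM in ctrl 3 against 142 in ctrl 1 and 117 to 157 in the cko libraries. *Rrm2b*, at 30.6 and 31.3, did not show this difference between the ctrl libraries.

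Markers of other cell types moved between the same libraries, in which 7.86% of all genes tested were higher and 8.57% lower (edgeR). Of 8 tested astrocyte genes, 5 were lower in cko NSCs, and their summed level was 4703 and 3899 normalized CPM in ctrl and 1802 to 2711 in cko NSCs. Of 11 oligodendrocyte genes, 6 were lower and 2 higher, with sums of 3221 and 3842 in ctrl and 3512 to 3765 in cko NSCs. The neuron list had 2 of 9 tested genes higher and 1 lower, with sums of 1349 and 1223 in ctrl and 1343 to 1378 in cko NSCs. The NSC list had 4 of 14 higher and 1 lower, with sums of 7467 and 6096 in ctrl and 8547 to 9049 in cko NSCs. Microglial genes summed to at most 1.49 normalized CPM in any library, with 5 of 9 at or under 3 counts throughout. Endothelial genes summed to at most 6.71, with *Cdh5* at 0. The part of these markers in the changes of the 9 genes was not tested, and in these bulk libraries a different share of dividing cells cannot be told apart from a different RNA level in each cell.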

How the data were processed

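RNA-seq libraries of ctrl and cko NSCs were compared. The authors checked the reads with FastQC, filtered them with NGSQC and aligned them with HISAT2 to mm10 in the methods of the study, whereas the labels name GRCm39. They deposited raw counts per Ensembl gene for 6 columns. The counting tool, annotation and strand setting are not given in the sources used here. The other kind of value that was deposited, in the column of ctrl 2, is a rounded mean of the counts of ctrl 1 and ctrl 3. The labels name a column-based RNA kit and the study TRIzol.

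Names and positions came from GENCODE M21 (GRCm38) and matched 31836 of 32493 IDs. The others held 0.181% to 0.299% of the counts. Counts of the 5 libraries were filtered by filterByExpr, normalized by TMM (factors 0.990 to 1.01) and tested with the quasi-likelihood test of edgeR 4.0.16 in R 4.3.3 over 16710 genes, with Benjamini-Hochberg adjustment. The totals of 17883796 to 23335736 counts set the precision. Intervals are at 95%. Ratios of counts within a library were tested by exact permutation (scipy 1.17.1). Transcripts were aligned with blastn 2.17.0 (95% identity, 200 bases). Promoters came from RefSeq. The edgeR and DESeq2 steps were tested on simulated data, in which the share of false calls in edgeR was above the nominal level, so that adjusted p-values near the threshold are less certain than they read.

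The 9 genes and all lists were chosen with earlier results of these data known. From each list other than markers, the 2 called genes with the smallest p in each direction were named, and the 5 coding genes nearest to *Rrm2*. Exceptions are marked, and some results that this rule gives are not reported here. The labels do not say that libraries came from separate cultures or litters, so p-values measure the spread between these libraries, which may be technical. The settings varied were the tool (DESeq2 1.42.0), the size factors (median of ratios), the filter (none, or a minimum of 10 counts per library), the replicate number as a block, all 6 columns, leaving out each library, and the threshold of the study.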

Additional observations from a re-analysis of the deposited data

How the results depend on the processing

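*Rrm1*, *Rrm2*, *Tyms*, *Tk1*, *Dut* and *Dck* had positive log2 fold changes under all 11 fitted alternatives, and *Rrm2b* and *Samhd1* had negative log2 fold changes under all 11. As the groups did not overlap for any of these genes, the alternatives could hardly have reversed a sign. Leaving out each library in turn gave 1 to 6 of the 9 genes higher and 0 lower, a median log2 fold change of 0.50 (without ctrl 1) to 0.87, 0 to 13 of the other nucleotide genes higher and 0 to 14 lower, 6 to 29 replication genes higher, and 317 to 1812 of all genes higher and 416 to 2062 lower. The log2 difference in the ratio of *Rrm2* to *Rrm1* was between -0.068 (without ctrl 1) and 0.39, that of *Rrm2* to *Rrm2b* between 1.06 and 1.71, and that of *Tk1* to *Dck* between 0.16 and 0.37. With all 6 columns, 2865 genes were higher and 2794 lower, with 2 of the 9 lower and 13 other nucleotide genes lower. At the threshold of the study 399 were higher and 696 lower, with 2 of the 9, 0 other nucleotide genes and 9 replication genes higher and 2 other nucleotide genes lower. Without a filter 2237 genes and 10 other nucleotide genes were lower.

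The sign of *Dtymk* was not stable, at -0.0015 with at least 10 counts in every library, -0.034 with the replicate block and between -0.15 (without ctrl 1) and 0.19 without 1 library. The cause was not tested. Libraries that share a replicate number deviated from their group means with r = 0.20 (replicate 1) and 0.0568 (replicate 3) across genes, so the numbers were not taken as pairs. With the replicate block, 6 of the 9 genes were higher and 0 lower, 2 other nucleotide genes were higher and 2 lower, and the log2 fold change of *Rrm2* was 1.02. As ctrl 2 was not counted, cko 2 was alone in its block and added nothing to the genotype difference. That fit therefore compared only replicates 1 and 3 and left little to measure the spread, so its calls are weak support. With 234 counts or more in every library, the 9 genes lay far above the limit of 3 counts.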

Other observations

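The genes that make ribonucleotides, the substrates of ribonucleotide reductase, were measured in the same libraries. Of all genes tested, 7.86% were higher and 8.57% lower at an adjusted p under 0.05 in edgeR. Of 16 genes of purine synthesis and salvage, 1 was higher and 1 lower, near those shares, with a median log2 fold change of 0.04. *Prps1*, which makes the ribose phosphate donor of both purine and pyrimidine synthesis, was at 22.7 and 26.2 normalized CPM in ctrl 1 and ctrl 3, and at 31.6, 34.0 and 35.2 in cko 1, 2 and 3 (log2 fold change 0.46, adjusted p = 0.0287 in edgeR). *Adssl1*, an adenylosuccinate synthetase best known from muscle, was lower with 27 and 26 counts in ctrl 1 and ctrl 3 and 3, 6 and 12 in cko 1, 2 and 3 (adjusted p = 0.0404 in edgeR). Of 8 genes of pyrimidine synthesis and salvage, 0 were higher and 1 lower in edgeR, and 0 and 1 in DESeq2. There were 1 and 1 at an unadjusted p under 0.05, which at least 4359 of the 16710 genes tested passed. The lower gene, *Uckl1*, a uridine-cytidine kinase, fell by 0.55 on the log2 scale (adjusted p = 0.00733 in edgeR), and it overlaps *Zfp512b* on the same strand. *Cad*, the enzyme that opens pyrimidine synthesis and was named after its values were seen, was at 118 and 161 normalized CPM in ctrl 1 and ctrl 3, and at 98.9, 122 and 113 in cko 1, 2 and 3 (log2 fold change -0.33, adjusted p = 0.16 in edgeR).

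Ribonucleotide reductase is returned to its active form by thioredoxin and glutaredoxin. Of 8 genes of these systems, 1 was higher and 0 lower in edgeR, against 7.86% and 8.57% of all genes tested. There were 1 and 1 at an unadjusted p under 0.05, which at least 4359 of the 16710 genes tested passed, and 1 and 0 in DESeq2. *Txnrd1*, the cytosolic thioredoxin reductase, was at 226 and 237 normalized CPM in ctrl 1 and ctrl 3, and at 285, 294 and 300.2 in cko 1, 2 and 3 (log2 fold change 0.34, adjusted p = 0.0206 in edgeR), and it overlaps other genes on both strands. *Txn1*, thioredoxin itself, named after its values were seen, was at 160 normalized CPM in ctrl 1 and at 324 in ctrl 3, against 285 to 338 in the cko libraries. Without cko 2, 0 genes of the purine, pyrimidine and reductant lists were called, and without ctrl 1, 2 pyrimidine and 2 reductant genes were lower.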
